A study of Mus musculus with 12 samples.

Results

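Endothelial cells line every blood and lymph vessel. White adipose tissue has a dense capillary bed, through which lipid, hormones and immune cells reach the adipocytes. VEGF ligands act through the receptors Kdr, Flt1 and Flt4, angiopoietins act through Tek with the related receptor Tie1, and Notch signals between neighbouring endothelial cells set which of them sprout and which become arterial. The 37 genes described here were picked by name, by a rule that uses no measured value, although earlier results of these data were known when they were picked. They comprise surface and junction markers, growth factor receptors, transcription factors, signalling genes, ligands and lymphatic genes. Of the 37, 36 had a row of their own among the 54134 genes listed, and all 36 passed the filter on low counts that left 15585 genes. The last, Figf, is listed under its current symbol Vegfd. Its values are given separately and enter none of the counts.

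RNA-seq was performed on inguinal white adipose tissue (iWAT), the subcutaneous fat of the groin, of 12 male C57BL/6J mice, 6 in the AAV-GFP group and 6 in the AAV-Notum group. Each mouse received adeno-associated virus by tail vein at 8 weeks of age, carrying GFP or Notum behind a promoter active in liver, then ate chow for 4 weeks and was fasted for 4 h. NOTUM is a secreted enzyme that removes the lipid from Wnt proteins, delivered here for expression in the liver and not in the fat that was sequenced. Each mouse was a sample of its own. The mice carry numbers as names (such as AAV-GFP-2011 and AAV-Notum-2042).

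Total counts ran from 14711113 to 21618860 per mouse. In iWAT, Notum itself stood at 29.3 and 26.6 CPM (counts scaled to library size) in 2 AAV-Notum mice, 0.457 to 0.905 CPM in the other 4 and 0.0595 to 0.995 CPM in AAV-GFP mice, a log2 fold change of 4.64 (adjusted p = 0.168 by edgeR) with overlapping groups. Part of that gene's exons, 38.1%, overlaps other genes. The 2 mice high in Notum were AAV-Notum-2032 and AAV-Notum-2041. Their 8 hepatocyte markers summed to 141 and 788 CPM, beside 21.2 to 52.4 CPM in the other AAV-Notum mice. In AAV-GFP mice these markers summed to 46.9 to 5549 CPM. Whether the Notum reads come from liver RNA was not tested. All 13 defining endothelial markers had at least 126 reads in every mouse, and Adipoq, an adipocyte hormone, had at least 43185. RNA integrity numbers were 5.7 to 7.6. The RNA of AAV-GFP-2012 was isolated on day 28 of the month and that of all other mice on day 8.

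A set of 15 lymphoid marker genes (B and T cell receptors, their partners and homing receptors) varied widely between the mice. Their summed level was 9.0 to 1879 CPM in AAV-GFP mice and 592 to 2597 CPM in AAV-Notum mice, and none of the 15 was at 0 reads in any mouse. AAV-GFP-2014 and AAV-GFP-2011 held the least, at 9.0 and 15.9 CPM, followed by AAV-GFP-2012 at 348 CPM and AAV-Notum-2042 at 592 CPM. The other 8 mice held 1300.3 CPM or more. Every one of the 15 genes had a higher mean in AAV-Notum mice (median log2 fold change 0.99), and none had an unadjusted p under 0.05. A higher lymphoid level tended to go with a lower level of the endothelial genes. A fit was therefore also made in the 8 mice whose mean lymphoid log2 CPM was above 6 (3 AAV-GFP, 5 AAV-Notum). Another fit used that mean as a covariate in all mice. Both are given for the 13 genes with an unadjusted p under 0.05. They are also given for the counts of the 36 genes by sign and by unadjusted p. Counts for other gene lists, and those relative to Cdh5 and Kdr, were not repeated in this way.

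Promoter windows illustrate the genes at the sequence level. RefSeq (GRCm38.p6) windows were available for 23 of the genes, Vegfd included. The 250 bases before the RefSeq start site are printed 5′ to 3′ on the gene's strand for 3 genes whose mean was lower in AAV-Notum mice in every fit made (Notch4, Rasip1 and Robo4) and for Kdr, a receptor whose interval included no difference. The GENCODE gene starts lie further upstream, so that by them the last 27 bases of the Notch4 window, 49 of Rasip1, 75 of Robo4 and 3 of Kdr come at or after the start. Capitals mark each GGAA, the core that ETS transcription factors such as Erg recognise, or TTCC, the same core read on the other strand.
Notch4, chr17:34564045-34564294, + strand: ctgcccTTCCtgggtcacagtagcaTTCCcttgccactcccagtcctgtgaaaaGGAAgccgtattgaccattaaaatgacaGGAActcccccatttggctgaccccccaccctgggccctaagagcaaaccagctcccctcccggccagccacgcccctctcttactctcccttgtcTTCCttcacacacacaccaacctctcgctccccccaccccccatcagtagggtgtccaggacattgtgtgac
Rasip1, chr7:45627287-45627536, + strand: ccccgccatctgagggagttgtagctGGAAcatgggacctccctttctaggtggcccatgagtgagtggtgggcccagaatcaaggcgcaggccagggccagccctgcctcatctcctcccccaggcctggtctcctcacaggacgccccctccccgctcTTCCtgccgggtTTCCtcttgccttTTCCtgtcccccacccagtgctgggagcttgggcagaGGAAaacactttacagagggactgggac
Robo4, chr9:37401722-37401971, + strand: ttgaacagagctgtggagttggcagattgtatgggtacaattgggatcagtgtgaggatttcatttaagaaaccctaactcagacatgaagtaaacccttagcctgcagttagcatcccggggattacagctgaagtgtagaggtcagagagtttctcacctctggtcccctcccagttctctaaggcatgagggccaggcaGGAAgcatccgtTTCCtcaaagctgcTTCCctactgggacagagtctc
Kdr, chr5:75978456-75978705, - strand: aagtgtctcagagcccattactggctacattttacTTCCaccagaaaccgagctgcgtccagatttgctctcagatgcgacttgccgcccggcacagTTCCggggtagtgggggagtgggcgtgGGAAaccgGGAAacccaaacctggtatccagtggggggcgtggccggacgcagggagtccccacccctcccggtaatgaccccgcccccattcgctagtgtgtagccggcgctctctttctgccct

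The windows held 5 such cores in Notch4 and in Rasip1, 3 in Robo4 and 4 in Kdr, so the core was found in a gene with a small p and in one without. Over all 23 windows, 20 held at least one (87%), beside 93.4% of 32851 windows of the same length in the table. CTTTGA, a form of the site of TCF/LEF factors that act in Wnt signalling, was in 3 of the 23 (13%) and in 13.8% of all windows on either strand. ACAAT, part of the site of SOX factors, was in 5 (21.7%) and in 27.7% of all windows. A match is a description of letters and not of a bound site.

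Levels per length spanned a wide range among the genes. In AAV-GFP mice, Vegfa stood highest at 105 ± 32.5 CPM per kilobase of merged exons (SD, n = 6), then Vegfb at 87.8 ± 27.5, Cdh5 at 44.9 ± 12.7, Cldn5 at 44.5 ± 13.1, Eng at 33.5 ± 11.3 and Pecam1 at 33.3 ± 5.31. Pdpn was the lowest at 0.419 ± 0.156, then Prox1 at 0.639 ± 0.600 and Pgf at 0.670 ± 0.205. Some neighbours in this order, such as Cdh5 and Cldn5, lay well within each other's SD, whereas Vegfb and Cdh5 did not.

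**Figure D1:**
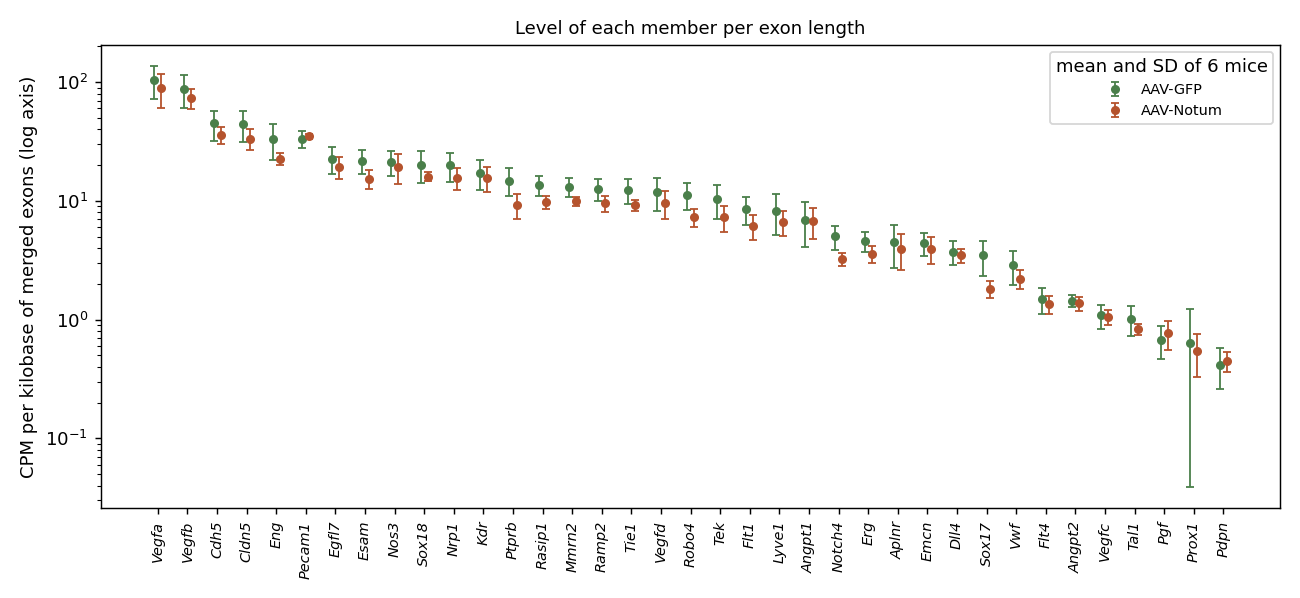
CPM per kilobase of merged exons on a log axis for 36 member genes and Vegfd, ordered by the AAV-GFP mean. Points are the mean and bars the SD of 6 mice, and the order runs from Vegfa at 105 to Pdpn at 0.419 in AAV-GFP mice.

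Comparing AAV-Notum with AAV-GFP mice asked whether vascular transcripts in iWAT differ after 4 weeks of liver NOTUM. Of 36 genes, 33 had a log2 fold change (AAV-Notum minus AAV-GFP) below 0, beside 48.8% of all genes tested, and the median was -0.32 beside 0.0077 over all genes. At an unadjusted p under 0.05 from the edgeR quasi-likelihood test, 13 genes were lower (36.1%, beside 9.54% of all genes) and 0 were higher (beside 4.64%). After Benjamini-Hochberg adjustment over the 15585 genes, 0 of 36 were below 0.05 (beside 0.0513% of all genes lower), and the smallest adjusted p was 0.130. DESeq2 on the same genes placed 6 of 36 below an adjusted p of 0.05, all lower (16.7%, beside 2.61% of all genes), and 14 lower at an unadjusted p under 0.05 (beside 11.0% of all genes). The DESeq2 adjusted p of the 6 ran from 0.00425 for Sox17 to 0.0227 for Ptprb. None of the 36 separated the groups completely, beside 0.693% of all genes with every AAV-Notum mouse below every AAV-GFP mouse. The tissue is bulk and CPM are shares of a library. Fewer endothelial cells, less RNA per cell and a larger share of RNA from other cells, such as lymphoid cells, cannot be told apart.

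The 13 genes were Sox17, Ptprb, Robo4, Notch4, Eng, Esam, Tek, Rasip1, Flt1, Tie1, Mmrn2, Ramp2 and Erg. By the exact permutation test on each gene alone, 10 of the 13 had p under 0.05, the others being Tie1, Tek and Erg. The 13 were picked by edgeR from the same mice, so this count is not separate evidence. The share of all genes with an exact p under 0.05 was not computed. Sox17, Ptprb, Robo4, Notch4, Rasip1 and Mmrn2 were lower with p under 0.05, before adjustment, by edgeR as well as by all 23 alternative fits. They are also the 6 that DESeq2, itself among the 23 fits, called. The fits reuse the same mice, and the share of all genes lower in every fit was not computed. With the lymphoid mean as a covariate, 7 of 36 genes were lower at that level (19.4%, beside 4.90% of all genes). These were the 6 and Lyve1, and 26 of 36 genes had a fold change below 0, with a median log2 fold change of -0.14. In the 8 mice high in lymphoid transcripts, 7 genes were lower (19.4%, beside 4.88%), and these were again the 6 and Lyve1, while 25 of 36 genes had a fold change below 0 and the median was -0.12. Without AAV-GFP-2012, 10 of 36 genes were lower at that level (beside 7.11% of all genes) and the median was -0.20.

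Adjusted for RNA integrity, 9 of 36 genes were lower at an unadjusted p under 0.05, beside 5.95% of all genes. These were Vwf and 8 of the 13, and the 5 without p under 0.05 were Flt1, Tek, Tie1, Erg and Ramp2. Without AAV-GFP-2011 and AAV-GFP-2014, 9 genes were lower (beside 4.95%), which were Vwf, Lyve1 and 7 of the 13. Esam and the same 5 genes did not have p under 0.05 there. With each of the 12 mice left out in turn, Flt1 kept p under 0.05 in 7 fits, and Tek and Erg in 5 each.

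With the mean of the adipocyte markers as a covariate, chosen after the data were seen, 28 of 36 genes had a fold change below 0 and the median was -0.21. Of these, 4 were lower at an adjusted p under 0.05 by edgeR, beside 0.802% of all genes. They were Robo4 at -0.43 (adjusted p = 0.0269 by edgeR), Ptprb at -0.47 (adjusted p = 0.0300 by edgeR), Sox17 at -0.66 (adjusted p = 0.0364 by edgeR) and Notch4 at -0.45 (adjusted p = 0.0406 by edgeR). Each of these log2 fold changes was smaller than in the fit without the covariate.

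Among transcription factors, Sox17, an arterial endothelial factor, had the largest difference. In AAV-GFP mice its level was 8.56 CPM at the lowest, 17.5 at the median and 22.6 at the highest, and in AAV-Notum mice it was 7.35, 8.34 and 11.3. The means were 16.6 ± 5.40 and 8.70 ± 1.38 CPM (SD, n = 6). The log2 fold change was -0.93 ± 0.22 (SE; 95% interval -1.40 to -0.46), a mean 47.5% lower, with an adjusted p of 0.130 by edgeR and an exact permutation p of 0.00649. All 6 AAV-Notum mice lay under the AAV-GFP mean and 5 of 6 AAV-GFP mice lay above every AAV-Notum mouse, the exception being AAV-GFP-2022. With the lymphoid covariate the value was -0.59 (unadjusted p under 0.05), as it was in the 8 mice high in lymphoid transcripts. Without AAV-GFP-2022 it was -1.06 with an adjusted p of 0.0219 by edgeR, in a fit that placed 0.930% of all genes lower at that level. Sox17 lies at chr1:4490931-4497354 (GRCm38), and 16.8% of its exon bases overlap another gene.

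The other factors differed less. Erg, an ETS factor that maintains endothelial identity, was 18.7 CPM at the highest and 11.6 at the lowest in AAV-GFP mice and 15.5 and 10.1 in AAV-Notum mice. Erg gave a log2 fold change of -0.34 ± 0.15 (adjusted p = 0.329 by edgeR, exact permutation p = 0.0693), and it was -0.12 with the lymphoid covariate and -0.17 in the 8 mice. Sox18, a factor of vascular and lymphatic development, had a log2 fold change of -0.33 (exact permutation p = 0.106), and Tal1, which specifies blood and endothelial precursors, -0.29 (exact permutation p = 0.115). Both had overlapping groups, and without AAV-GFP-2012 they were -0.16 and -0.13. Sox18 had an unadjusted p under 0.05 without AAV-GFP-2021 (-0.40) and without AAV-GFP-2022 (-0.39).

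Among Notch genes, Notch4, the endothelial Notch receptor, was 26.8, 44.7 and 48.5 CPM at the lowest, median and highest of AAV-GFP mice and 22.4, 25.6 and 32.2 CPM in AAV-Notum mice. For Notch4 the log2 fold change was -0.63 ± 0.16 (95% interval -0.97 to -0.29; adjusted p = 0.140 by edgeR, exact permutation p = 0.0152). In 4 AAV-GFP mice the level was above every AAV-Notum mouse, and AAV-GFP-2013 and AAV-GFP-2022, both high in lymphoid transcripts, lay among the AAV-Notum mice. The value was -0.38 with the lymphoid covariate and -0.43 in the 8 mice high in lymphoid transcripts (unadjusted p under 0.05 in both). Dll4, the Notch ligand of sprouting tip cells, ran from 9.83 to 18.3 CPM in AAV-GFP mice and from 12.1 to 16.9 CPM in AAV-Notum mice. Dll4 gave a log2 fold change of -0.10 ± 0.15, with an interval of -0.44 to 0.24 (adjusted p = 0.727 by edgeR, exact permutation p = 0.636). Without AAV-GFP-2011 it was -0.02. The difference between the receptor and the ligand was not tested.

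The surface and junction markers included genes on both sides. Ptprb (VE-PTP), a receptor phosphatase that restrains Tek, was 134, 198 and 270 CPM at the lowest, median and highest of AAV-GFP mice, and 101, 112 and 173 CPM in AAV-Notum mice. Ptprb gave a log2 fold change of -0.68 ± 0.19 (adjusted p = 0.169 by edgeR, exact permutation p = 0.0152), a mean 37.5% lower, and 4 AAV-Notum mice lay below every AAV-GFP mouse. It was -0.40 with the lymphoid covariate and -0.45 in the 8 mice. Robo4, a receptor that stabilises vessels, was 41.1, 60.6 and 78.0 CPM in AAV-GFP mice and 31.1, 38.2 and 49.4 CPM in AAV-Notum mice. For it the log2 fold change was -0.64 ± 0.17 (adjusted p = 0.154 by edgeR, exact permutation p = 0.0108), and 5 AAV-Notum mice lay below every AAV-GFP mouse, the exception being AAV-Notum-2042, the mouse of that group lowest in lymphoid transcripts. Mmrn2, a matrix protein of the endothelium, was 41.9, 49.9 and 63.8 CPM in AAV-GFP mice and 36.4, 38.3 and 45.1 CPM in AAV-Notum mice (log2 fold change -0.41 ± 0.11, adjusted p = 0.160 by edgeR, exact permutation p = 0.00649). The lymphoid covariate gave -0.30 for Robo4 and -0.25 for Mmrn2, and the 8 mice gave -0.36 and -0.24.

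Eng (endoglin, a TGF-β co-receptor) and Esam (an endothelial cell adhesion molecule) were the other markers with an unadjusted p under 0.05. Eng was 91.3 to 223 CPM in AAV-GFP mice and 81.6 to 109 CPM in AAV-Notum mice, with a log2 fold change of -0.57 ± 0.18 (adjusted p = 0.214 by edgeR, exact permutation p = 0.0108). Its highest value, 223 CPM, was that of AAV-GFP-2012, and the other 5 AAV-GFP mice were at 91.3 to 139. Without AAV-GFP-2012 the log2 fold change of Eng was -0.37. Esam was 44.5 to 80.0 and 35.0 to 56.0 CPM, with -0.51 ± 0.17 (adjusted p = 0.217 by edgeR, exact permutation p = 0.0260). With the lymphoid covariate Eng was at -0.42 and Esam at -0.25, neither with p under 0.05, and in the 8 mice they were at -0.24 and -0.34. Without AAV-GFP-2011 and AAV-GFP-2014, the mice lowest in lymphoid transcripts, Eng was at -0.57 and Esam at -0.36.

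The most widely used markers had no unadjusted p under 0.05 from edgeR with all mice. Pecam1 (CD31) was 162, 211 and 248 CPM at the lowest, median and highest of AAV-GFP mice and 198, 219 and 229 CPM in AAV-Notum mice. For Pecam1 the log2 fold change was 0.07 ± 0.10, with an interval of -0.15 to 0.29 (adjusted p = 0.716 by edgeR, exact permutation p = 0.431). Pecam1 is also made by leukocytes and platelets, and AAV-GFP-2011 and AAV-GFP-2014, the mice lowest in lymphoid transcripts, held its lowest levels. Cdh5 (VE-cadherin) was 127, 188 and 258 CPM in AAV-GFP mice and 128, 147 and 187 CPM in AAV-Notum mice, with -0.32 ± 0.18 (interval -0.71 to 0.08; adjusted p = 0.421 by edgeR, exact permutation p = 0.175). In the 8 mice high in lymphoid transcripts its log2 fold change was 0.02, and without AAV-GFP-2012 it was -0.21. Cldn5, a tight junction protein (-0.41, exact permutation p = 0.104), Vwf, a clotting factor carrier (-0.37, exact permutation p = 0.117), and Emcn, a sialomucin of capillaries and veins (-0.17, exact permutation p = 0.372), had overlapping groups. Without AAV-GFP-2012 Vwf was at -0.19 and Emcn at -0.06. The lymphoid covariate gave -0.04 for Cldn5 and -0.0042 for Cdh5, and without AAV-GFP-2011 and AAV-GFP-2014 they were at -0.16 and -0.18. Other fits gave larger values. At an unadjusted p under 0.05, Cldn5 was lower by DESeq2 (-0.41) and with each of 4 mice left out in turn (-0.47 to -0.51), and Cdh5 was lower without AAV-GFP-2022 (-0.41). Vwf was lower at that level when adjusted for RNA integrity (-0.46), without AAV-GFP-2011 (-0.46) and without both mice lowest in lymphoid transcripts (-0.48).

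**Figure D2:**
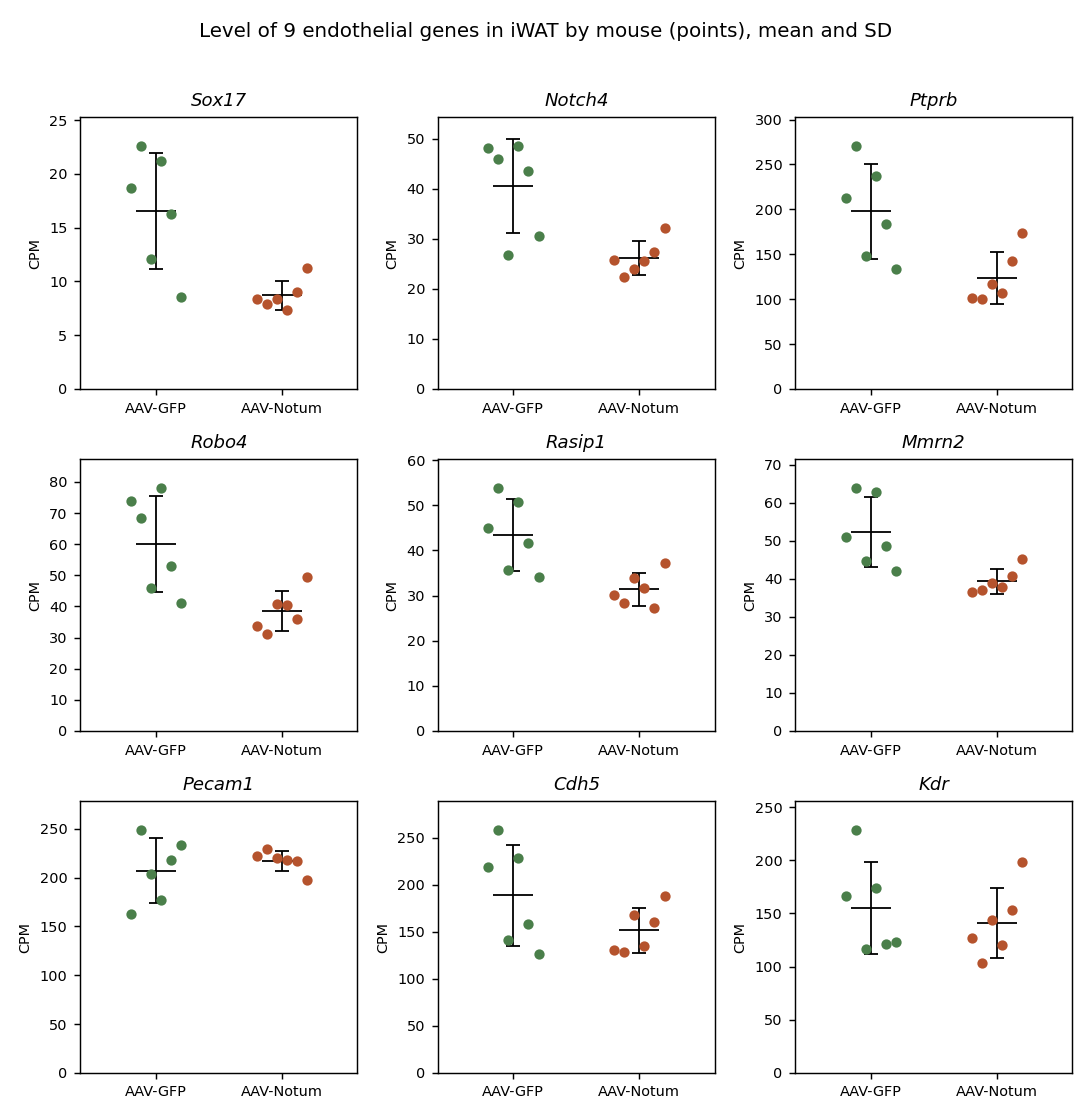
CPM of 9 genes in each mouse, one panel per gene with its own axis from 0, with points for the 6 mice of each group and bars for the mean and SD. Sox17, Notch4, Ptprb, Robo4, Rasip1 and Mmrn2 had lower AAV-Notum means with overlap, whereas Pecam1 ran from 162 to 248 CPM and from 198 to 229 CPM.

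Of the 6 VEGF and Tie receptors, 3 were lower at an unadjusted p under 0.05 (beside 9.54% of all genes). None had an adjusted p under 0.05 (beside 0.0513% of all genes lower). Flt1 (VEGFR1), which binds VEGF-A without strong signalling, was 84.2, 110 and 167 CPM in AAV-GFP mice and 62.9, 79.7 and 118 CPM in AAV-Notum mice, with a log2 fold change of -0.47 ± 0.19 (adjusted p = 0.300 by edgeR, exact permutation p = 0.0411). Tek (TIE2) was 31.1, 46.3 and 76.8 CPM and 26.7, 33.3 and 49.6 CPM (-0.50 ± 0.21, adjusted p = 0.317 by edgeR, exact permutation p = 0.0584), and Tie1 was 41.1 to 75.6 and 39.9 to 53.5 CPM (-0.42 ± 0.15, adjusted p = 0.256 by edgeR, exact permutation p = 0.0519). With the lymphoid covariate Flt1 was at -0.24, Tek at -0.27 and Tie1 at -0.14, none with p under 0.05, and in the 8 mice they were at -0.27, -0.27 and -0.12. Without AAV-GFP-2012 Tek was at -0.33.

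Kdr (VEGFR2), the main signalling receptor for VEGF-A, was 117, 145 and 228 CPM in AAV-GFP mice and 103, 135 and 199 CPM in AAV-Notum mice. Kdr gave a log2 fold change of -0.14 ± 0.19, with an interval of -0.56 to 0.29 (adjusted p = 0.699 by edgeR, exact permutation p = 0.556), so a fall of up to 0.56 or a rise of up to 0.29 lies within it. Its value was -0.26 without AAV-Notum-2042, 0.0061 without AAV-GFP-2012 and 0.12 with the lymphoid covariate. Flt4 (VEGFR3), the VEGF-C receptor, had -0.14 (exact permutation p = 0.502) and -0.0015 without AAV-GFP-2022, and Nrp1, a VEGF co-receptor, -0.34 (exact permutation p = 0.121), or -0.20 without AAV-GFP-2012 and -0.42 (unadjusted p under 0.05) without AAV-GFP-2013.

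Rasip1, which is needed to open vascular lumens, was 34.1, 43.3 and 53.8 CPM in AAV-GFP mice and 27.1, 30.8 and 37.3 CPM in AAV-Notum mice. Rasip1 gave a log2 fold change of -0.47 ± 0.13 (adjusted p = 0.152 by edgeR, exact permutation p = 0.00866), and 5 AAV-Notum mice lay below every AAV-GFP mouse. Rasip1 shares 42.9% of its exon bases with other genes, A030001D20Rik, Gm45437 and Izumo1, and whether reads were counted by strand is not stated. Ramp2, the partner of the adrenomedullin receptor, was 29.9 to 50.9 and 26.2 to 40.7 CPM (-0.41 ± 0.15, adjusted p = 0.264 by edgeR, exact permutation p = 0.0281), and 33.4% of its exon bases overlap Vps25. The lymphoid covariate gave -0.30 for Rasip1 and -0.19 for Ramp2, and the 8 mice gave -0.30 and -0.24. Egfl7 (a secreted endothelial protein), Nos3 (endothelial nitric oxide synthase) and Aplnr (the apelin receptor) stood at -0.23 (exact permutation p = 0.297), -0.13 (exact permutation p = 0.511) and -0.19 (exact permutation p = 0.630) in turn. With a mouse left out, Egfl7 ran from -0.34 (without AAV-Notum-2042) to -0.15 (without AAV-GFP-2011), Nos3 from -0.26 (without AAV-Notum-2033) to -0.04 (without AAV-GFP-2012) and Aplnr from -0.39 (without AAV-Notum-2042) to -0.03 (without AAV-GFP-2011). Exon overlap was 11.2% for Egfl7 and 32.3% for Nos3.

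**Figure D3:**
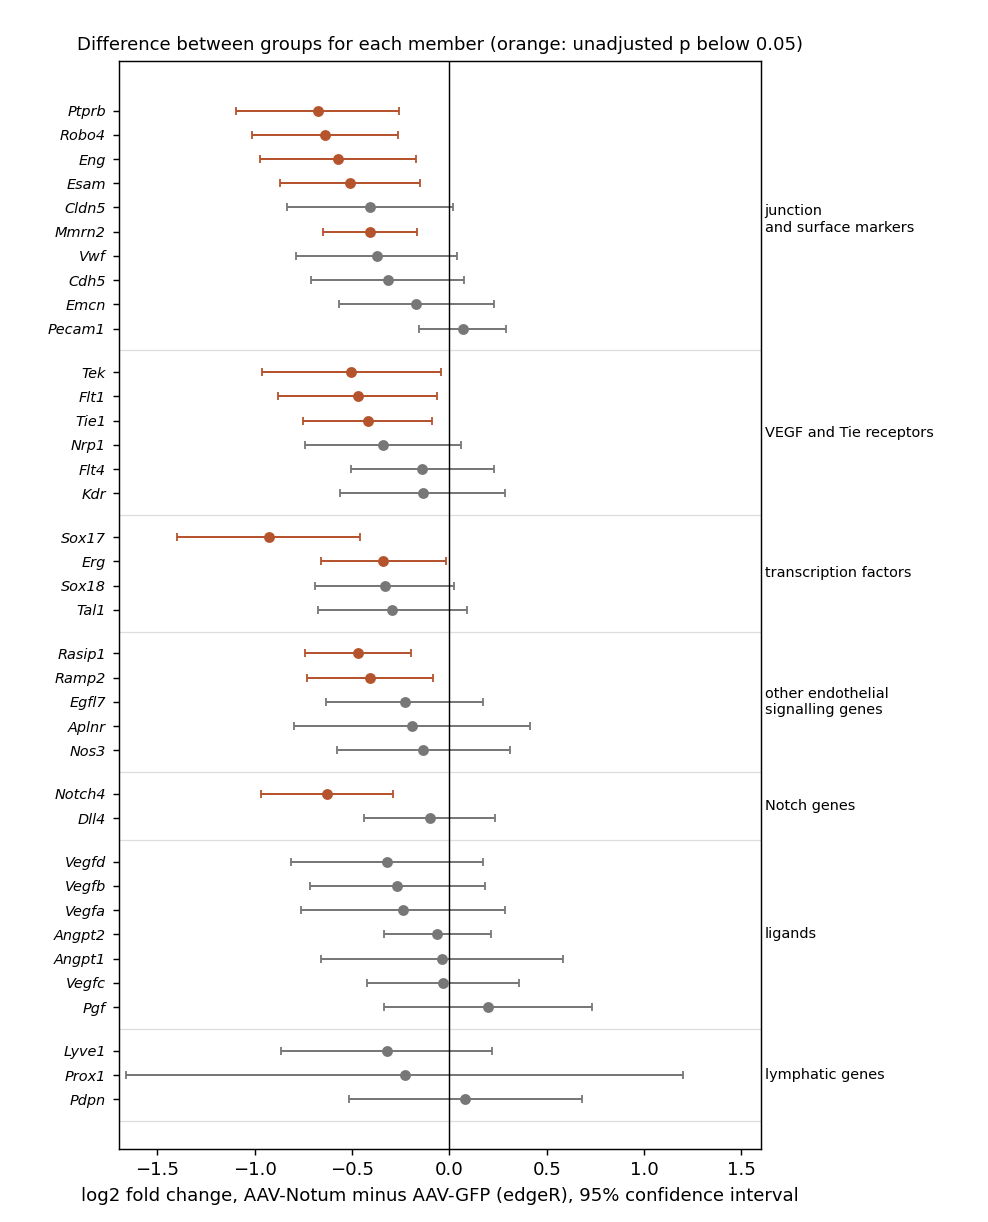
Log2 fold change (AAV-Notum minus AAV-GFP) with its 95% confidence interval from edgeR for 36 genes and Vegfd, grouped by role. Orange marks an unadjusted p under 0.05, which covers 13 genes lower and 0 higher, from Sox17 at -0.93 to Erg at -0.34.

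Of 6 ligand genes with a row, 0 had an unadjusted p under 0.05, and their median log2 fold change was -0.05. Vegfa, the principal angiogenic factor, which adipocytes make, was 297, 421 and 643 CPM at the lowest, median and highest of AAV-GFP mice and 263, 340 and 542 CPM in AAV-Notum mice. Vegfa gave a log2 fold change of -0.24 ± 0.24, with an interval of -0.76 to 0.28 (adjusted p = 0.590 by edgeR, exact permutation p = 0.355). Vegfb was at -0.27 (exact permutation p = 0.338), Vegfc at -0.03 (exact permutation p = 0.946), Angpt1, the activating angiopoietin, at -0.04 (exact permutation p = 0.961), Angpt2, its antagonist, at -0.06 (exact permutation p = 0.556) and Pgf at 0.20 (exact permutation p = 0.411). Single mice moved these values. Vegfa was at -0.11 without AAV-GFP-2012 and -0.37 without AAV-Notum-2042, Vegfb at -0.16 without AAV-GFP-2011, and Pgf at 0.099 without AAV-GFP-2012. Vegfd was at -0.32 (exact permutation p = 0.253), from 16.9 to 41.0 CPM in AAV-GFP mice and from 15.7 to 33.7 CPM in AAV-Notum mice, and it was at -0.19 without AAV-GFP-2014. Angpt1 shares 14.2% of its exon bases with another gene.

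The 3 lymphatic genes had no p under 0.05. Prox1, the lymphatic master regulator, was 0.168, 3.91 and 13.8 CPM in AAV-GFP mice, from 3 reads in AAV-GFP-2011, and 2.72, 3.85 and 7.72 CPM in AAV-Notum mice. For Prox1 the log2 fold change of -0.23 ± 0.66 had an interval from -1.66 to 1.20 (adjusted p = 0.860 by edgeR, exact permutation p = 0.682), so its direction is not set by these mice. Lyve1, a hyaluronan receptor of lymph vessels and of some macrophages, was 12.4, 24.4 and 38.7 CPM in AAV-GFP mice and 13.1, 19.3 and 24.9 CPM in AAV-Notum mice. Lyve1 gave a log2 fold change of -0.32 ± 0.25 (adjusted p = 0.508 by edgeR, exact permutation p = 0.357), and with the lymphoid covariate it was -0.70 (unadjusted p under 0.05, adjusted p = 0.350 by edgeR) and in the 8 mice -0.50. Without AAV-GFP-2022 it was -0.14. Pdpn, a lymphatic surface protein, stood at 0.298 to 1.05 CPM and gave 0.08 (exact permutation p = 0.667).

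Other pathway and cell type genes gave the setting. Of 30 other pan-endothelial genes, 13 were lower at an unadjusted p under 0.05 (43.3%) and 0 higher, where the median of the log2 fold changes was -0.41, with no adjusted p under 0.05. By sign alone, 21 of the 30 had a log2 fold change below 0 and 9 above. Rhoj, a small GTPase of endothelium, was at -0.73 (adjusted p = 0.113 by edgeR, exact permutation p = 0.00433), Shank3 at -0.60 (exact permutation p = 0.00216), Exoc3l2 at -0.49 (exact permutation p = 0.0325) and Adgrf5, a receptor of capillary endothelium, at -0.57 (exact permutation p = 0.0519). On the other side, named after their values were seen, the transcription factor Ets1 was at 0.70 (exact permutation p = 0.0952), its relative Fli1 at 0.34 (exact permutation p = 0.126) and Lmo2 at 0.56 (exact permutation p = 0.0758). Ets1 ran from 63.7 to 387 CPM within AAV-GFP mice, and a part of the lymphoid level in these values was not tested. Of 30 further VEGF, angiopoietin, Notch and apelin pathway genes, 11 were lower and 0 higher at that level, with a median of -0.21 and with 23 values below 0 and 7 above. Acvrl1, the endothelial BMP receptor ALK1, was at -0.49 (exact permutation p = 0.00433), the Notch ligand Jag2 at -0.57 (exact permutation p = 0.00216), adrenomedullin (Adm) at -0.55 (exact permutation p = 0.0108) and the Notch target Heyl at -0.57 (exact permutation p = 0.0411). Named after their values were seen, the Notch targets Hes1, Hey1 and Hey2 were at 0.037, -0.075 and -0.29 (exact permutation p = 0.695, 0.747 and 0.201). The highest value of the list was Ramp3 at 0.67 (exact permutation p = 0.121). These lists were named with earlier results known, and they are counts beside the background of 9.54% and not a separate test.

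Mural cell markers had 2 of 11 lower at an unadjusted p under 0.05 (18.2%, beside 9.54% of all genes), Notch3 at -0.33 (exact permutation p = 0.00433) and Acta2 at -0.61 (exact permutation p = 0.0108). Of the 11, 7 values were below 0 and 4 above, up to Des at 0.42 (exact permutation p = 0.312). The 7 lymphatic endothelium markers tested had 0 lower and 0 higher at an unadjusted p under 0.05, and the 5 high endothelial venule markers, of the vessels by which lymphocytes enter lymph nodes, had 0 and a median log2 fold change of 0.92. Their summed level was 2.98 to 83.8 CPM in AAV-GFP mice and 28.9 to 99.2 CPM in AAV-Notum mice, lowest in AAV-GFP-2011 and AAV-GFP-2014, in both of which Chst4 was at 0 reads, as was Glycam1 in AAV-GFP-2014. Fibroblast and progenitor markers had 5 of 8 lower at an unadjusted p under 0.05 (62.5%, beside 9.54% of all genes), such as Pdgfra at -0.49 (exact permutation p = 0.00649). By sign, 7 of these 8 were below 0 and 1 above, Dpp4 at 0.65 (exact permutation p = 0.154), with a median of -0.44. Macrophage markers had 2 of 8 lower at that level, Cd163 at -0.94 (adjusted p = 0.0696 by edgeR, exact permutation p = 0.00216) and Mrc1 at -0.40 (exact permutation p = 0.0693). Hepatocyte markers also had 2 of 8, Alb at -2.83 (exact permutation p = 0.108) and Serpina1a at -2.80 (exact permutation p = 0.258). All 8 hepatocyte markers had values below 0 (median -2.80), and they summed to 5549 CPM in AAV-GFP-2013 and 1467 CPM in AAV-GFP-2014, beside 21.2 to 788 CPM in the other 10 mice. The macrophage markers had 4 values below 0 and 4 above, with a median of 0.016, up to Lyz2 at 0.57 (exact permutation p = 0.0844), a gene named after its value was seen, as were Des and Dpp4. Adipocyte, lymphoid and muscle markers had 0, as had the 2 of 6 epithelial markers that were tested. Of the 10 adipocyte markers, 9 had values below 0 and 1 above, with a median of -0.25. They summed to 33418 to 58860 CPM in AAV-GFP mice and 29335 to 67855 CPM in AAV-Notum mice. Whether these cell types have a part in the vascular values was not tested beyond the covariate fits.

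The mice could be placed by the mean of the 36 genes, each centred on its mean over all mice. AAV-GFP-2012 stood highest at 0.42 on the log2 scale and held the highest level of 18 of the 36 genes, AAV-GFP-2014 was at 0.28 and AAV-GFP-2011 at 0.18. These are the 3 AAV-GFP mice lowest in lymphoid transcripts. AAV-GFP-2021, AAV-GFP-2013 and AAV-GFP-2022 were at 0.08, -0.09 and -0.08. In AAV-Notum mice the value was highest, 0.09, in AAV-Notum-2042, the lowest of that group in lymphoid transcripts, and lowest, -0.30, in AAV-Notum-2032, the highest in lymphoid transcripts, which held the lowest level of 12 genes. Within AAV-Notum mice, and between the 3 AAV-GFP mice lowest in lymphoid transcripts and the other 3, a higher lymphoid level thus went with a lower level of the endothelial genes. The mean log2 CPM of the adipocyte markers went with the endothelial genes, and was higher where the lymphoid level was lower. It was 11.63, 11.54 and 11.43 in AAV-GFP-2014, AAV-GFP-2011 and AAV-GFP-2012, against 10.48 to 11.19 in the other AAV-GFP mice. In AAV-Notum mice it was 11.501 in AAV-Notum-2042 and 10.47 to 11.08 in the others, AAV-Notum-2032 being at 10.50. No fit held both levels at once. Skeletal muscle markers, all 6 of them with a higher AAV-Notum mean (median log2 fold change 1.39), summed to 3425 CPM in AAV-Notum-2042, 735 in AAV-GFP-2012, 514 in AAV-Notum-2033 and 491 in AAV-GFP-2011, and to 6.73 to 160 CPM in the other 8 mice. These 4 include the mouse with the highest endothelial mean in each group, and the part of muscle in the endothelial values was not tested.

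**Figure D4:**
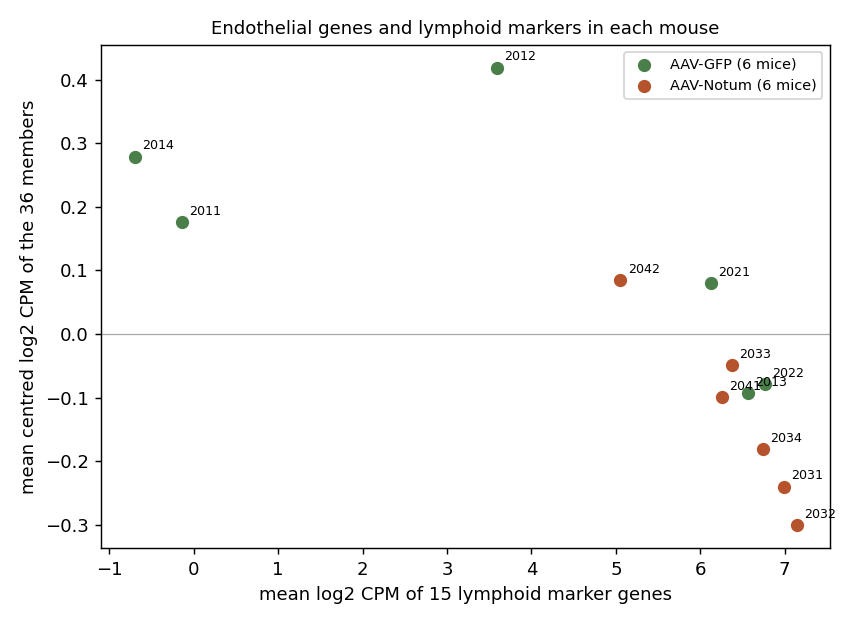
Mean centred log2 CPM of the 36 genes (vertical) against the mean log2 CPM of 15 lymphoid marker genes (horizontal), one point per mouse with its number, 6 per group. AAV-GFP-2014 and AAV-GFP-2011 sit at the upper left, AAV-GFP-2012 highest and near the middle of the horizontal axis, and AAV-Notum-2032 lowest at -0.30.

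A level relative to another endothelial gene in the same mouse removes any difference common to both genes. Cdh5 was chosen as the reference after its values were seen. Relative to Cdh5, 2 of 35 genes did not overlap between the groups and both were lower, Sox17 and Ptprb, beside 0.423% of all genes with every AAV-Notum mouse below and 0.436% with every one above. Sox17 was 6.76% to 10.2% of Cdh5 in AAV-GFP mice and 4.98% to 6.39% in AAV-Notum mice. The difference of the log2 ratios was -0.58 (exact permutation p = 0.00216, the smallest this design can give; adjusted over all genes, p = 0.252). Ptprb was 97.3% to 116% of Cdh5 in AAV-GFP mice and 69.9% to 92.5% in AAV-Notum mice, a difference of -0.38 with the same exact p of 0.00216 and adjusted p of 0.252. These are ratios of CPM, without a correction for length.

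Robo4 (-0.33, exact permutation p = 0.00433), Notch4 (-0.32, exact permutation p = 0.0195) and Flt1 (-0.18, exact permutation p = 0.0303) were also lower relative to Cdh5, with overlap. Kdr was at 75.9% to 97.7% and 80.3% to 106% of Cdh5 (0.16, exact permutation p = 0.0909). With Kdr as the reference, also chosen after values were seen, 2 of 35 genes did not overlap and both were lower, Ptprb at -0.54 and Flt1 at -0.34 (exact permutation p = 0.00216 for each), beside 0.648% of all genes with every AAV-Notum mouse below and 0.109% above. Sox17 overlapped there, at -0.73 (exact permutation p = 0.00433), so Ptprb alone was without overlap under both references. In the 8 mice high in lymphoid transcripts, Sox17 was at -0.55 and Ptprb at -0.47 relative to Cdh5.

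**Figure D5:**
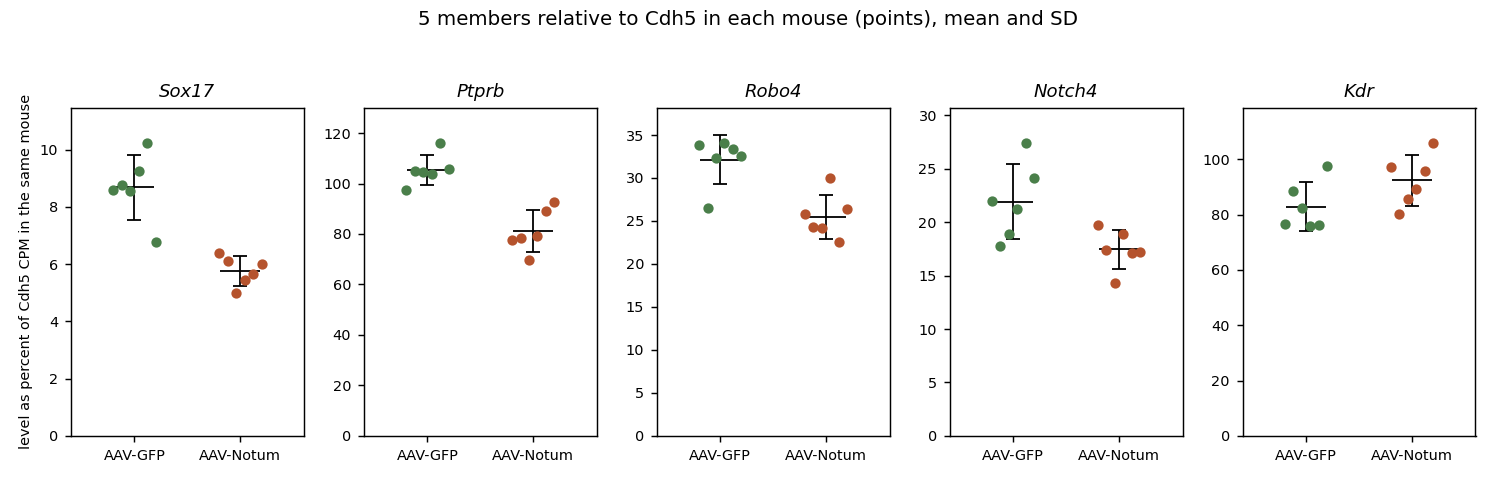
Level of 5 genes as a percent of Cdh5 CPM in the same mouse, with points for the 6 mice of each group, bars for the mean and SD, and an axis from 0 in each panel. Sox17 (6.76% to 10.2% against 4.98% to 6.39%) and Ptprb do not overlap between the groups, while Robo4, Notch4 and Kdr do.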

How the data were processed

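Per the labels and methods, the authors prepared TruSeq libraries from iWAT of 12 mice, sequenced 50 bp single-end reads and mapped them with STAR 2.3.1 to mm10. The counting program, annotation and strand setting are not given in the sources used here. The deposited table of raw counts per gene was used. A second table deposited by the authors holds log2 normalized values, from which 100% of values came out as whole reads (tolerance 0.05). Those reads served as an alternative, called 10 genes lower and 1 higher of 16080 tested, 0 of them members, and differed from the raw counts for every member.

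Counts were tested in R 4.3.3 with edgeR 4.0.16 (filterByExpr, minimum count 10, minimum total 15; TMM; two-sided quasi-likelihood test; Benjamini-Hochberg over 15585 genes, threshold 0.05). CPM use TMM library sizes, and log2 CPM a prior count of 2. The SE was taken as the fold change (log2) over the root of F. Exact permutation tests were two-sided over 924 assignments of mice. Total counts per mouse were 14711113 to 21618860, and errors include variation between mice. Positions and exon lengths are from GENCODE vM21 of GRCm38. Alternatives were DESeq2 1.42.0, limma-voom 3.58.1, RLE size factors, filters of 1 count in all and of 10 in every mouse, the RNA integrity number, lymphoid or adipocyte means as covariates, recovered reads, and subsets of mice. The members and lists were chosen with earlier results of these data known. All members are named, with full values for those at unadjusted p under 0.05 and for Pecam1, Cdh5, Kdr, Flt1, Tek, Vegfa, Dll4, Prox1 and Lyve1, and of other lists up to 4 genes of smallest p under 0.05. The high-lymphoid subset, the adipocyte covariate and the Cdh5 and Kdr references were added after the data were seen. Mouse numbers are unique to each mouse and pair no samples.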

Additional observations from a re-analysis of the deposited data

Results flagged for a closer look

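Levels of 74 groups of 6 mice (37 genes) were checked for a mouse far from the others, of which about 3.7 would be expected by chance, and 3 were found. Eng was 223 CPM in AAV-GFP-2012, beside 91.3 to 139 CPM in the other AAV-GFP mice. Tal1 was 6.85 CPM in AAV-GFP-2012, beside 3.52 to 4.68 CPM. Dll4 was 16.9 CPM in AAV-Notum-2034, beside 12.1 to 13.9 CPM.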

How the results depend on the processing

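The direction of 13 genes lower at an unadjusted p under 0.05 was the same in every alternative and with each mouse left out. Members lower at an adjusted p under 0.05 numbered 0 in edgeR, 6 with DESeq2, 4 with the adipocyte covariate and 1 without AAV-GFP-2022 (range 0 to 1 over the mice left out). Of all genes, 0.0513%, 2.61%, 0.802% and 0.930% were lower at that level in these fits in turn. Members lower at an unadjusted p under 0.05 numbered 13, and 10 to 16 with a mouse left out (beside 6.67% to 13.6% of all genes), 9 with the RNA integrity number and 9 without AAV-GFP-2011 and AAV-GFP-2014, 7 with the lymphoid covariate and 7 in the 8 mice high in lymphoid transcripts, where the median log2 fold change was -0.12. With a mouse left out the median ran from -0.38 to -0.20, the latter without AAV-GFP-2012. No paired analysis was possible because the mouse numbers are unique to each mouse. None of the genes whose sign turned was called. Signs turned as follows, and the cause was not tested. Under limma-voom Angpt1 was at 0.0054 and Prox1 at 0.59. Under the RNA integrity number, Pecam1 was at -0.013, Aplnr at 0.090 and Angpt1 at 0.12. Under the lymphoid covariate, Pecam1 was at -0.069, Emcn 0.038, Kdr 0.12, Egfl7 0.084, Nos3 0.11, Aplnr 0.35, Dll4 0.097, Vegfa 0.10, Vegfb 0.13, Angpt1 0.46, Pdpn -0.12 and Vegfd 0.098. Without AAV-GFP-2011 and AAV-GFP-2014, Pecam1 was at -0.056, Aplnr 0.16, Dll4 0.083, Angpt1 0.32 and Pdpn -0.040. In the 8 mice high in lymphoid transcripts, Cdh5 was at 0.021, Kdr 0.11, Egfl7 0.023, Nos3 0.11, Aplnr 0.17, Dll4 0.050, Vegfa 0.066, Vegfb 0.055, Angpt1 0.29 and Pdpn -0.081. Under the adipocyte covariate, Kdr was at 0.036, Nos3 0.037, Aplnr 0.13, Vegfb 0.0017 and Angpt1 0.31. With a mouse left out, Kdr ran from -0.26 to 0.0061, Vegfc from -0.14 to 0.029, Angpt1 from -0.17 to 0.10, Prox1 from -0.48 to 0.31 and Pdpn from -0.082 to 0.19. Reads were fewest for Pdpn (5 to 21 in a mouse), Pgf (21 to 59) and Vegfc (29 to 61), while those of Prox1 ran from 3 to 235.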
